A study of Mus musculus with 8 samples.

Results

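Genes that mark classical and non-classical monocytes, 9 of the 55376 in the deposited count table, were followed in macrophages grown from mouse bone marrow. They were taken by symbol as known markers, with earlier results of these data known: Cx3cr1, Ccr2, Ly6c2, Nr4a1, Itgal, Cd300e, Treml4, Ace and Spn. The 4 groups were DNMT3A-HET macrophages treated with IL-6, DNMT3A-HET control macrophages, wild-type (WT) macrophages treated with IL-6 and WT control macrophages, with 2 libraries each, numbered 1 and 2. The donors were males aged 13 weeks, 3 of each genotype, and in every group M-CSF (50 ng/mL) drove the marrow cells to macrophages. IL-6, a cytokine of inflammation whose receptor activates STAT3, was added at 10 ng/mL on day 6 and left for 2 days, and RNA was taken on day 8. HET stands here for the label DNMT3A-HET, for which the labels give no allele, and neither the mouse behind a library nor any pooling of mice is stated, so every p-value rests on the spread between libraries alone, part of which may be technical.

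Monocytes leave the marrow in a classical form, high in Ly6C and in the chemokine receptor CCR2, and can convert to a non-classical form that patrols the vessel wall. In the mouse, non-classical monocytes are low in Ly6C and high in the fractalkine receptor CX3CR1, and depend on the nuclear receptor NR4A1. CD43 (Spn), the integrin LFA-1 (its alpha chain is Itgal), CD300E, TREML4 and angiotensin-converting enzyme (Ace) are further markers of the non-classical form. M-CSF drives marrow monocytes and their precursors to become macrophages.

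Levels are given in CPM, read counts scaled to library size (by TMM), and tests are edgeR quasi-likelihood tests over 13721 genes, with a gene called when its Benjamini-Hochberg adjusted p was under 0.05. A value after ± is the SE where it follows a log2 fold change, and the SD (n = 2 libraries) where it follows a level. Library totals ran from 18926641 to 50137897 counts, and HET IL-6 number 2 held the highest. Dnmt3a, the gene of the genotype label, was at 140.1 and 213 CPM in the libraries labelled HET IL-6, 166 and 248 CPM in those labelled HET control, 175 and 183 CPM in WT IL-6 and 275 and 244 CPM in WT control. The number 2 libraries labelled HET therefore overlapped the WT level or lay above it, and what leaving them out does to the members is given with the counts. The 7 macrophage markers listed, among them the M-CSF receptor gene Csf1r, summed to 6303 to 6998 CPM in every library. The 7 T and NK cell markers summed to at most 0.167 CPM, with Cd3e, Ncr1 and Gzma at 0, and the 5 B cell markers to at most 0.377 CPM, with Pax5 and Vpreb3 at 0. The 7 stromal markers, led by Col1a2, summed to 1.21 CPM (HET control) to 11.99 CPM (WT IL-6). The 4 mast cell and basophil markers, led by Kit, summed to 1.66 CPM (WT IL-6) to 8.40 CPM (WT control). The 6 dendritic cell markers summed to 1.16 to 1.74 CPM. With IL-6, edgeR called 1 of 3 tested dendritic cell markers higher in HET and 0 of 3 stromal markers in either genotype. In WT it called 1 of 2 tested mast cell and basophil markers lower, where 18.3% of all tested genes were called in each genotype. Between the genotypes, 1 mast cell and basophil marker was called lower in HET in control, 1 higher after IL-6 and 1 different in response. After IL-6, 1 stromal marker was called lower in HET. In these comparisons 4.85%, 22.0% and 8.12% of all tested genes were called. The part of these lists in the members' changes was not tested.

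IL-6 lowered 3 members in both genotypes, Nr4a1, Cd300e and Spn, as it did 3.70% of all tested genes, and their promoters are shown because the treatment acts on a STAT factor and the genotype on a DNA methyltransferase. RefSeq promoters (GRCm38.p6, the 250 bases before the start) were found for 8 of the 9 members, all except Itgal. Capitals mark CpG, the dinucleotide that DNA methyltransferases act on. The stretches are chr15:101266596-101266845 on the plus strand for Nr4a1, chr7:127137824-127138073 on the minus strand for Spn and chr11:115062178-115062289 on the minus strand for Cd300e, the last cut to the 112 bases outside annotated exons.
Nr4a1: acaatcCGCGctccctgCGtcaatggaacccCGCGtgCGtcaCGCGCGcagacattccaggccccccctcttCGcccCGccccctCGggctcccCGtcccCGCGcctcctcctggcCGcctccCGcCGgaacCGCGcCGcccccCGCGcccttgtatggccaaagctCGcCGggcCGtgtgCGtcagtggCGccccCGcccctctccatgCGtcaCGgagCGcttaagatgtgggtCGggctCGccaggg
Spn: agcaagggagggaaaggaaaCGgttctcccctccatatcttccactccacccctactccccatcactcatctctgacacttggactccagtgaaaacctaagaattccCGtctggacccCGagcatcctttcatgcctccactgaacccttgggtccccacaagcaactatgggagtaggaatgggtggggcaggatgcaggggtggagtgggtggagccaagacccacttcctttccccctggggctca
Cd300e: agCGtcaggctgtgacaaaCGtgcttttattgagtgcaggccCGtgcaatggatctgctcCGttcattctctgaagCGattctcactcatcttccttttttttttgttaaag

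The Nr4a1 promoter held 34 CpG in 250 bases, against a median of 6 over 32851 promoters of that length. Spn held 3 and Cd300e 6, of which 5 are in the stretch shown, and 37.8% of all promoters held 3 or fewer. Of the other members, Cx3cr1 held 4, Treml4 2, Ccr2 1 and Ly6c2 0 at both of its starts, while the starts of Ace held 19 and 1. The Cx3cr1 window lay wholly within annotated exons, as did 233 of the 250 bases of the Ccr2 window. The letters TTCNNNGAA, a STAT site read the same on both strands, matched once among these windows, as TTCTCTGAA in Cd300e, and 7.02% of all promoters held a match. The NR4A site AAAGGTCA and the cAMP response element TGACGTCA, searched on both strands, matched in none of the members' windows, and 1.34% and 1.55% of all promoters held them. The PU.1 core GAGGAAG matched in Ly6c2 and Ace, and in 10.6% of all promoters. The Cd300e match lies in the stretch shown, TGACGTCA itself holds a CpG, and a match is a description of letters only.

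The fractalkine receptor gene Cx3cr1 (ENSMUSG00000052336, chromosome 9, 119901616 to 120069879, mm10, minus strand) spanned the widest range of CPM among the members. It was at 30.0 and 24.9 CPM in HET IL-6, 195 and 125 CPM in HET control, 99.3 and 79.0 CPM in WT IL-6 and 50.7 and 76.2 CPM in WT control. Both HET IL-6 libraries lay below every other library and both HET control libraries above every other, while the WT groups lay between them and did not overlap each other. In HET, IL-6 lowered Cx3cr1 by a log2 fold change of -2.55 ± 0.31 (edgeR adjusted p = 0.00355), and this call was kept under every alternative run, with values from -2.84 to -2.19. In WT the change was 0.49 ± 0.30 (adjusted p = 0.339) and was not called. In these bulk libraries fewer cells that express the gene and less of its RNA per cell cannot be told apart.

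The genotypes thus stood in opposite order in the treatments. After IL-6, Cx3cr1 was lower in HET than in WT by -1.71 ± 0.31 (edgeR adjusted p = 0.0163), and in control it was at 1.33 ± 0.30 in HET over WT (adjusted p = 0.0727), which was not called by edgeR but was by DESeq2 (adjusted p = 0.00319). The control value was also called without HET control number 2 (1.62, adjusted p = 0.00677) and without both HET number 2 libraries (1.76e-04) or both HET number 1 libraries (0.0193). The IL-6 response differed between the genotypes by -3.05 ± 0.43, HET minus WT (adjusted p = 0.0154). That call was lost with no filter on low counts (adjusted p = 0.0605) and without HET IL-6 number 2 (0.0505), WT IL-6 number 1 (0.111) or 2 (0.0605) or WT control number 1 (0.0805), and the fold change stayed between -3.37 and -2.68. The call after IL-6 was lost without any one of the 4 IL-6 libraries, with adjusted p = 0.0519 to 0.176, and with no filter (0.0671). Another gene, the antisense Gm33858, overlaps 1.73% of the exon bases of Cx3cr1.

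Itgal (ENSMUSG00000030830, chromosome 7, 127296260 to 127335138, mm10, plus strand), the LFA-1 alpha chain that binds ICAM-1 on endothelium, was called in both genotypes in opposite directions. It was at 18.9 and 17.6 CPM in HET IL-6, 67.9 and 40.1 CPM in HET control, 63.7 and 61.0 CPM in WT IL-6 and 15.1 and 22.4 CPM in WT control. HET control and WT IL-6 were thus the high groups, and HET IL-6 and WT control the low ones. IL-6 lowered Itgal in HET by -1.57 ± 0.27 (edgeR adjusted p = 0.00690) and raised it in WT by 1.74 ± 0.27 (adjusted p = 0.00480). Genes called lower in HET and higher in WT made up 0.262% of those tested.

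HET over WT was 1.53 ± 0.27 for Itgal in control (edgeR adjusted p = 0.0309) and -1.78 ± 0.27 after IL-6 (adjusted p = 0.00493). The difference of the IL-6 response was -3.30 ± 0.38 (adjusted p = 0.00412). This was kept under all alternatives except without WT IL-6 number 1 (adjusted p = 0.0695). The fall in HET was lost without HET IL-6 number 2 (adjusted p = 0.0652), WT IL-6 number 1 (0.0557) or WT IL-6 number 2 (0.0537), and the rise in WT without WT IL-6 number 1 (0.0970) or 2 (0.0667) or WT control number 1 (0.0854). The excess in HET control was lost without each of 6 libraries, all but those of HET control, with adjusted p = 0.0597 to 0.115, and with no filter (0.0597), and after IL-6 the call was lost without HET IL-6 number 2 (0.0527) or WT IL-6 number 1 (0.117). In each of these cases the log2 fold change kept its direction.

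LFA-1 is also carried by neutrophils and lymphocytes. The 8 neutrophil markers summed to 1.26 to 1.33 CPM in HET IL-6, 2.26 to 2.41 CPM in HET control, 2.27 to 2.36 CPM in WT IL-6 and 0.927 to 1.12 CPM in WT control. The sum, led by S100a9, was high and low in the same groups as Itgal and lay below Itgal alone in every library. The markers did not all follow it: of the 3 tested, S100a9 alone was called with IL-6, and S100a8, at 0.580 and 0.263 CPM in HET IL-6 and 0.455 and 0.322 CPM in WT IL-6, overlapped between them. Ly6g, which defines neutrophils, was at 0 in all libraries except HET control number 1. The part of these markers in the result was not tested. The T and NK cell markers were at or near 0, as given above.

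**Figure D1:**
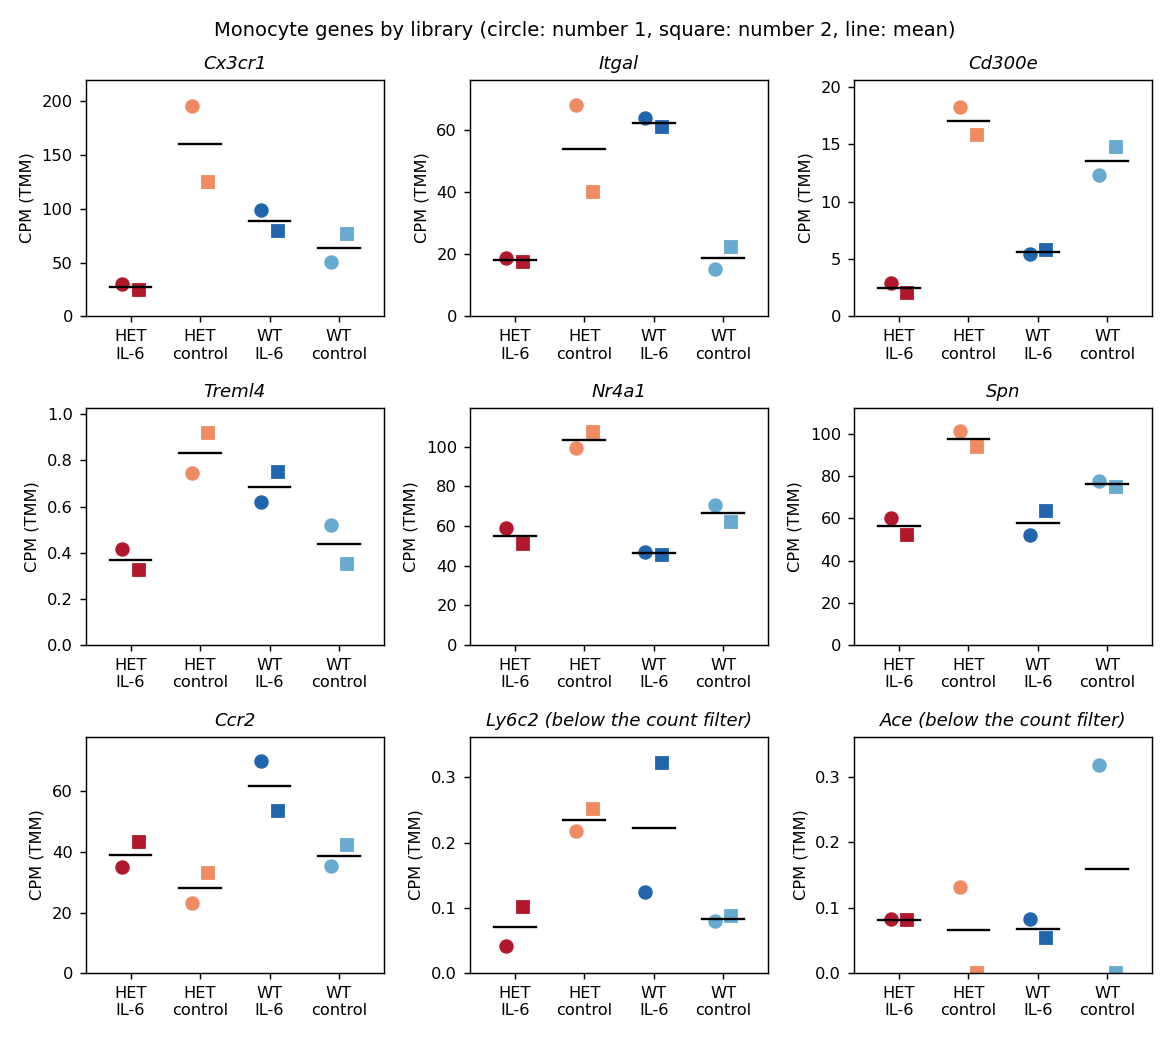
Level of each monocyte gene in CPM (TMM-scaled, linear axes from 0) in each of the 8 libraries, with circles for number 1, squares for number 2 and a line at the mean of the group. Cx3cr1 is lowest in HET IL-6 (24.9 to 30.0 CPM) and highest in HET control (125 to 195 CPM), and Itgal is high in HET control and WT IL-6.

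Cd300e (ENSMUSG00000048498, chromosome 11, 115051917 to 115062177, mm10, minus strand) encodes an activating receptor of myeloid cells that signals through DAP12. Its level was 2.94 and 2.07 CPM in HET IL-6, 18.3 and 15.8 CPM in HET control, 5.46 and 5.79 CPM in WT IL-6 and 12.3 and 14.8 CPM in WT control. The IL-6 libraries lay below the control libraries in both genotypes, and HET IL-6 was the lowest group. IL-6 lowered it by -2.82 ± 0.17 in HET (edgeR adjusted p = 6.26e-08) and by -1.27 ± 0.16 in WT (adjusted p = 8.51e-05).

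The fall was larger in HET, with a difference of -1.55 ± 0.24 for Cd300e (edgeR adjusted p = 0.00174), which was kept under all 15 alternatives at -1.78 to -1.28. After IL-6, HET was lower than WT by -1.22 ± 0.19 (adjusted p = 8.59e-04), also kept under all 15 alternatives. In control, HET over WT was 0.33 ± 0.15 (adjusted p = 0.216) and not called under any of them. The gene was counted at 71 to 418 reads per library.

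Treml4 (ENSMUSG00000051682, chromosome 17, 48264295 to 48275360, mm10, plus strand), a receptor of the TREM family, was counted at only 8 to 22 reads per library. This gave 0.414 and 0.324 CPM in HET IL-6, 0.744 and 0.920 CPM in HET control, 0.620 and 0.750 CPM in WT IL-6 and 0.518 and 0.353 CPM in WT control. The libraries of the groups did not overlap within a genotype or within a treatment. The change with IL-6 in HET was -1.21 ± 0.40 (edgeR adjusted p = 0.0501) and missed the threshold, and it was called with RLE size factors (adjusted p = 0.0499) and with scaling to total counts (0.0429). In WT it was 0.63 ± 0.43 (adjusted p = 0.363), and the difference of the responses was -1.83 ± 0.59 (adjusted p = 0.0738). A difference of the Treml4 response between the genotypes was not detectable at this depth.

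Nr4a1 (ENSMUSG00000023034, chromosome 15, 101254269 to 101274795, mm10, plus strand), the nuclear receptor on which non-classical monocytes depend in mice, was lower after IL-6 in both genotypes. It was at 59.1 and 50.8 CPM in HET IL-6, 99.3 and 107 CPM in HET control, 46.7 and 45.6 CPM in WT IL-6 and 70.7 and 62.3 CPM in WT control. HET control was the highest group and WT IL-6 the lowest, and no 2 groups overlapped. IL-6 lowered Nr4a1 by -0.92 ± 0.10 in HET (edgeR adjusted p = 1.14e-05) and by -0.53 ± 0.10 in WT (adjusted p = 0.00162), both kept under all 15 alternatives.

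In control, Nr4a1 was higher in HET than in WT by 0.64 ± 0.10 (edgeR adjusted p = 0.00369), and this call too was kept under all 15 alternatives, at 0.55 to 0.73. After IL-6 it was at 0.25 ± 0.10 in HET over WT (adjusted p = 0.0850), which was not called, and which was called without WT control number 1 (adjusted p = 0.0418) or 2 (0.0409). Averaged over treatment it was higher in HET by 0.44 ± 0.07 (adjusted p = 0.00106). The difference of the responses was -0.39 ± 0.14 (adjusted p = 0.0997), called without WT control number 1 (0.0468).

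Spn (ENSMUSG00000051457, chromosome 7, 127132232 to 127137823, mm10, minus strand) encodes CD43, a large sialomucin of the leukocyte surface. It was at 60.1 and 52.2 CPM in HET IL-6, 101 and 93.8 CPM in HET control, 52.3 and 63.3 CPM in WT IL-6 and 77.6 and 74.9 CPM in WT control. The IL-6 groups of the genotypes overlapped, and the control groups did not. IL-6 lowered Spn by -0.80 ± 0.10 in HET (edgeR adjusted p = 7.13e-05) and by -0.40 ± 0.10 in WT (adjusted p = 0.0136). The call in WT was lost without WT IL-6 number 1 (log2 fold change -0.27, adjusted p = 0.153).

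In control, HET over WT was 0.36 ± 0.10 for Spn (edgeR adjusted p = 0.0595), not called by edgeR but called by DESeq2 (adjusted p = 0.0307), with no filter (0.00637) and without WT IL-6 number 1 (0.0295) or 2 (0.0300). The difference of the responses was -0.40 ± 0.14 (adjusted p = 0.113), called without WT IL-6 number 1 (0.0444). CD43 is also abundant on T cells, whose markers were at or near 0 here.

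Ccr2 (ENSMUSG00000049103, chromosome 9, 124101950 to 124113557, mm10, plus strand), the receptor for CCL2 that brings classical monocytes out of the marrow, rose with IL-6 in WT. It was at 35.0 and 43.1 CPM in HET IL-6, 23.3 and 32.9 CPM in HET control, 69.7 and 53.2 CPM in WT IL-6 and 35.4 and 42.1 CPM in WT control. WT IL-6 was the highest group and HET control the lowest, while HET IL-6 and WT control overlapped. IL-6 raised Ccr2 by 0.67 ± 0.17 in WT (edgeR adjusted p = 0.0215), and the change in HET was 0.48 ± 0.18 (adjusted p = 0.0904).

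The responses of Ccr2 differed by -0.19 ± 0.25 (edgeR adjusted p = 0.714), so a difference between the genotypes was not shown. The rise in WT was lost without WT IL-6 number 1 (adjusted p = 0.199) or WT control number 1 (0.285) or 2 (0.102). The change in HET was called by DESeq2 (0.0247), with no filter (4.96e-05), with the replicate number as a block (0.0394) and without HET IL-6 number 1 (0.0472) or HET control number 2 (0.0153). After IL-6, Ccr2 was lower in HET than in WT by -0.65 ± 0.17 (adjusted p = 0.0229), lost without HET IL-6 number 1 (0.0977), WT IL-6 number 1 (0.248) or WT control number 1 (0.0782) or 2 (0.0779), and without both HET number 1 libraries (0.0543). In control HET over WT was -0.46 ± 0.18 (adjusted p = 0.177), and without both HET number 2 libraries the difference came to -0.73 (adjusted p = 0.0225), and with no filter it was called as well (0.00175).

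Ly6c2, the gene of the Ly6C antigen that defines classical monocytes (ENSMUSG00000022584, chromosome 15, 75108158 to 75111970, mm10), lay close to the floor of detection. It was counted at 1 and 5 reads in HET IL-6, 5 and 6 in HET control, 3 and 6 in WT IL-6 and 2 and 2 in WT control, 30 reads in all. Its relative Ly6c1 was counted at 0 to 4 reads per library, and the sequences are so alike that reads of the pair may be split or lost in counting. Ace (ENSMUSG00000020681, chromosome 11, 105967945 to 105989964, mm10) had 20 reads in all, with 2 and 4 in HET IL-6, 3 and 0 in HET control, 2 and 1 in WT IL-6 and 8 and 0 in WT control. An antisense gene overlaps 5.58% of the exon bases of Ace. Both fell below the filter on low counts and were not tested, and a floor of 3 reads corresponded to 0.0608 to 0.161 CPM. The other 7 members were tested.

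**Figure D2:**
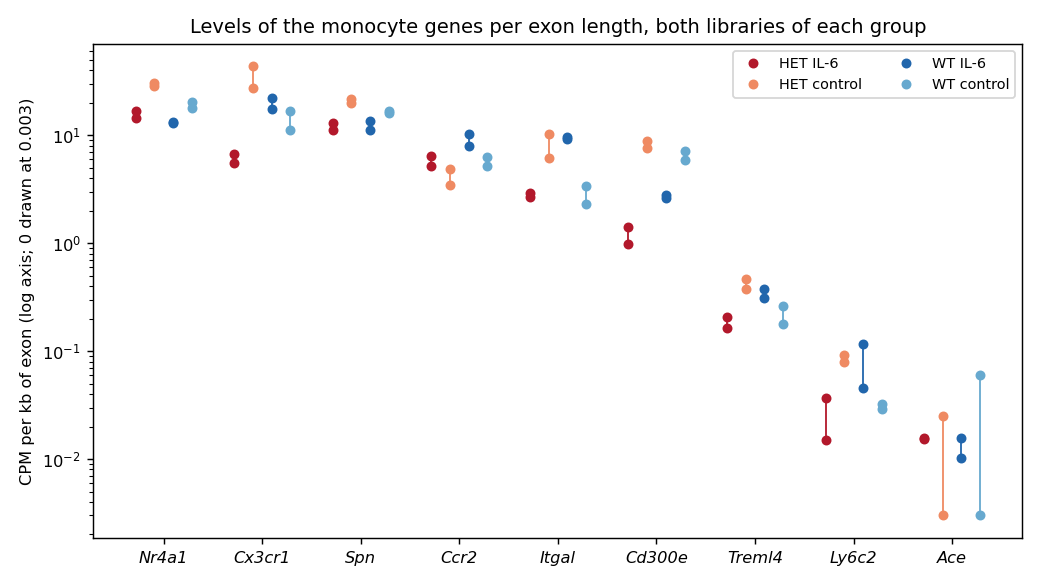
Level per exon length (CPM per kilobase of exon, log axis) of the 9 members, with 1 point for each library and a line joining the libraries of a group. Ly6c2 and Ace lie at or below 0.117 in every library, and a count of 0 is drawn at 0.003.

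Set per kilobase of exon, the level of the members could be ranked within each group. In HET IL-6 the order ran from Nr4a1 (15.6 ± 1.67 CPM per kilobase) through Spn (11.1 and 12.8 in its libraries), Cx3cr1 (6.09 ± 0.82), Ccr2 (5.78 ± 0.85), Itgal (2.78 ± 0.15), Cd300e (1.20 ± 0.30) and Treml4 (0.185 ± 0.032) to Ly6c2 and Ace. Cx3cr1 and Ccr2 overlapped there, as did Ly6c2 and Ace. In HET control Cx3cr1 was highest at 35.5 ± 11.1 CPM per kilobase, overlapping Nr4a1 at 29.5 ± 1.65, with Spn at 20.9 ± 1.16 below both.

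Itgal and Cd300e overlapped next in HET control, at 8.22 ± 2.99 and 8.16 ± 0.85 CPM per kilobase, and Ccr2 stood below them at 4.15 ± 1.01. In WT IL-6 Cx3cr1 led at 19.8 ± 3.19 CPM per kilobase, above Nr4a1 (13.1 ± 0.24) and Spn (12.3 ± 1.67), which overlapped, and Itgal (9.49 ± 0.29) overlapped Ccr2 (9.09 ± 1.73). In WT control the order began with Nr4a1 at 18.9 ± 1.69 and Spn at 16.3 ± 0.41, and Spn overlapped Cx3cr1 at 14.1 ± 4.00. Cd300e followed at 6.50 ± 0.82, overlapping Ccr2 at 5.73 ± 0.70. Exon length is that of all annotated transcripts together, which can differ from the length of the transcripts in these cells.

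By count, IL-6 lowered 5 and raised 0 of the 7 tested members in HET, where 18.3% of all tested genes were called, 9.41% lower and 8.87% higher. Since the members were chosen with earlier results known, counts set beside such shares are description only, here and between the genotypes. At an unadjusted p under 0.05 edgeR put 1 member higher in HET, Ccr2, which DESeq2 also called. In WT IL-6 lowered 3 (Nr4a1, Cd300e and Spn) and raised 2 (Itgal and Ccr2), where 18.3% were called, 10.4% lower and 7.91% higher. The median log2 fold change of the 7 was -1.21 in HET and 0.49 in WT, beside 0.01 and -0.01 over all tested genes. The libraries of IL-6 and control did not overlap for all 7 members in either genotype, and the same held for 64.8% of all tested genes in HET and 52.6% in WT. Averaged over genotype, Ccr2 was called higher and Cx3cr1, Nr4a1, Cd300e and Spn lower, where 23.6% of genes were called. The call of Cx3cr1 there was lost with no filter (adjusted p = 0.0977) and without each of 4 libraries (0.0604 without HET IL-6 number 2, 0.0879 without WT IL-6 number 1, 0.113 without WT IL-6 number 2 and 0.0824 without WT control number 2), and that of Ccr2 without WT control number 1 (0.0973) or 2 (0.0504).

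Between the genotypes, 2 of the 7 were called higher in HET control than in WT control (Nr4a1 and Itgal) and 0 lower, where 4.85% of all tested genes were called, 2.81% higher and 2.05% lower. There edgeR put 1 member lower at an unadjusted p under 0.05 (Ccr2) and DESeq2 called 0 lower. After IL-6, 0 were called higher in HET and 4 lower (Cx3cr1, Ccr2, Itgal and Cd300e), where 22.0% were called, 13.2% higher and 8.80% lower. Of the 7, 1 was higher at an unadjusted p under 0.05 (Nr4a1), and DESeq2 called 0 higher. Libraries of HET and WT did not overlap for 7 of the 7 in control, beside 50.6% of tested genes, and for 6 of the 7 after IL-6, beside 65.1%. The response was called different for 3 members (Cx3cr1, Itgal and Cd300e), all more negative in HET, where 8.12% of genes were called, 3.60% in that direction and 4.52% in the other. Averaged over treatment, Nr4a1 was called higher in HET and Ccr2 and Cd300e lower, where 19.9% were called. There Ccr2 lost its call without WT IL-6 number 1 (adjusted p = 0.0675), WT control number 2 (0.147) or both HET number 1 libraries (0.0635), and Cd300e without HET IL-6 number 2 (0.163), HET control number 2 (0.0857), WT control number 2 (0.0606) or both HET number 2 libraries (0.387). The comparisons between the genotypes use the same libraries as the comparisons of treatment, so their counts are not independent of those.

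Without both number 2 libraries labelled HET, in which Dnmt3a did not lie below the WT level, the 5 members lowered by IL-6 in HET were each still called, at -2.70 for Cx3cr1, -1.84 for Itgal, -2.63 for Cd300e, -0.75 for Nr4a1 and -0.75 for Spn. The differences of the response were also called, at -3.19 for Cx3cr1, -3.57 for Itgal and -1.36 for Cd300e, as were the 4 members lower in HET after IL-6. The 4 endothelial markers, of which Kdr made up nearly all, summed to 55.2 to 56.1 CPM in HET IL-6, 27.8 to 30.2 CPM in HET control, 52.4 to 56.0 CPM in WT IL-6 and 32.3 to 34.8 CPM in WT control. That sum was higher after IL-6 in both genotypes, but of the 3 markers tested edgeR called only Kdr higher in HET and Kdr and Cdh5 in WT. Of all tested genes, 8.87% were called higher in HET and 7.91% in WT. Cdh5 was at 1.49 and 1.78 CPM in HET IL-6 and 1.97 and 2.01 CPM in HET control. The part of these markers in the members' changes was not tested.

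**Figure D3:**
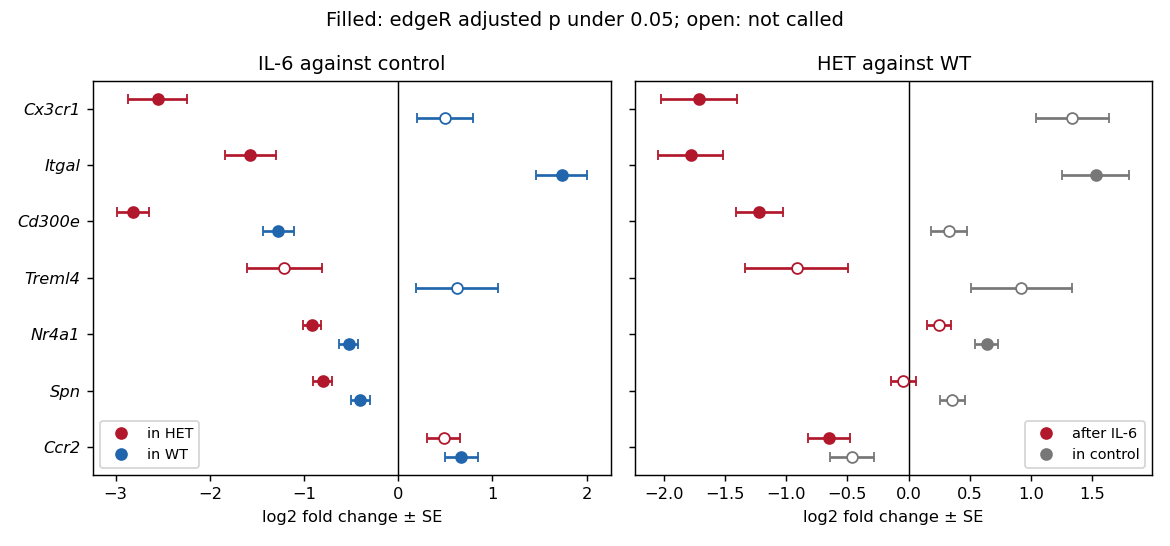
Log2 fold change with its SE (bars) of the 7 tested members, for IL-6 over control in HET and WT (left) and for HET over WT after IL-6 and in control (right), with filled points for edgeR calls and open points for values not called. On the left Itgal lies at -1.57 in HET and 1.74 in WT, and Cx3cr1 at -2.55 and 0.49.

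The other genes of these monocyte states were described by lists chosen with earlier results of these data known. Of 16 other classical monocyte genes, 14 were tested. In HET, where 8.87% of all tested genes were called higher and 9.41% lower, 8 rose with IL-6 and 1 fell, with a median of 0.64 beside 0.01 over all tested genes, and in WT, where 7.91% were called higher and 10.4% lower, 5 rose and 2 fell, with a median of 0.18 beside -0.01. The proteoglycan gene Vcan rose by 1.61 ± 0.19 in HET (edgeR adjusted p = 4.63e-05) and by 2.42 ± 0.20 in WT (adjusted p = 1.21e-06). The transcription factor gene Klf4 rose by 0.73 ± 0.11 in HET and its response was higher there than in WT by 1.11 ± 0.16 (adjusted p = 9.40e-04). The collagenase gene Mmp8 rose by 2.19 ± 0.24 in WT and the coagulation factor gene F13a1 by 1.24 ± 0.22. These calls of Vcan, Klf4, Mmp8 and F13a1 were kept under all 15 alternatives. The gene that fell in HET was S100a4, by -0.59 (edgeR adjusted p = 3.19e-04). Its call was lost only without both HET number 1 libraries (-0.50). The 2 genes that fell in WT were not among the 4 of the list with the smallest p there. By level, Plac8, Mgst1, Ifitm6 and Klf4 were lower in both WT IL-6 libraries than in either WT control library. Their means were 0.483, 7.21, 13.1 and 45.5 CPM in WT IL-6 and 1.16, 11.5, 16.8 and 59.4 CPM in WT control.

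Of 14 other non-classical monocyte genes, 12 were tested, and IL-6 raised 2 and lowered 4 in HET and raised 2 and lowered 1 in WT, beside 18.3% of all tested genes called in each genotype. Their medians were 0.01 in HET and 0.13 in WT. Adgre4, an adhesion receptor gene of the F4/80 family, was at 0.497 and 0.365 CPM in HET IL-6, 3.24 and 2.84 CPM in HET control, 1.12 and 1.45 CPM in WT IL-6 and 1.39 and 2.21 CPM in WT control. The HET groups were far apart and the WT groups overlapped. It fell by -2.86 ± 0.33 in HET (edgeR adjusted p = 2.81e-05), and the responses differed by -2.37 ± 0.46 (adjusted p = 0.00749), a call lost without HET IL-6 number 2 (0.0523).

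Hes1, a target of Notch signalling, fell by -1.73 ± 0.27 in HET (edgeR adjusted p = 3.62e-04). Klf2, a transcription factor gene, fell by -1.58 ± 0.15 in WT (adjusted p = 5.70e-06) and less in HET, with a difference of 1.15 ± 0.21 (adjusted p = 0.00460) that was lost without both HET number 1 libraries (0.0736). The G protein gene Gngt2 rose by 0.72 ± 0.13 in WT (adjusted p = 0.00124). Adgre4 and Hes1 kept their calls in HET, and Klf2 and Gngt2 theirs in WT, under all 15 alternatives. The 2 genes raised in HET were Fabp4, by 1.14 (edgeR adjusted p = 0.00187), and Pou2f2, by 0.51 (adjusted p = 0.00128). Fabp4 lost its call without both HET number 2 libraries (0.97), and Pou2f2 without both libraries of either HET number. Pou2f2 also rose in WT by 0.30 (adjusted p = 0.0419), a call lost under 13 of 15 alternatives.

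The ligands and partners of the members were all 10 tested, and IL-6 raised 3 and lowered 3 in HET and raised 2 and lowered 3 in WT, where 18.3% of all tested genes were called in each. Fractalkine (Cx3cl1), the ligand of CX3CR1, was at 2.65 and 2.39 CPM in HET IL-6, 9.62 and 9.33 CPM in HET control, 3.60 and 3.54 CPM in WT IL-6 and 5.26 and 6.80 CPM in WT control. It was lowest in HET IL-6 and highest in HET control, as its receptor gene was. It fell by -1.92 ± 0.17 in HET (edgeR adjusted p = 2.47e-06) and by -0.75 ± 0.18 in WT (adjusted p = 0.00860), and the call in WT was lost without WT control number 2 (0.0594).

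The difference of the Cx3cl1 response, -1.17 ± 0.25 (edgeR adjusted p = 0.0110), was lost without HET IL-6 number 2 (0.0630), HET control number 1 (0.0587) and without both HET number 1 libraries (0.0866) or both HET number 2 libraries (0.100). Of the chemokine genes whose products act on CCR2, Ccl12 rose by 2.40 ± 0.10 in HET and 2.65 ± 0.10 in WT, and Ccl7 by 1.26 ± 0.08 in HET and 0.58 ± 0.08 in WT. Their calls within each genotype were kept under all 15 alternatives, with adjusted p = 1.06e-07 for Ccl7 in HET and 1.54e-04 in WT. The response of Ccl7 was higher in HET by 0.68 (edgeR adjusted p = 0.00257), a call lost only without both HET number 1 libraries. Ccl2 rose in HET by 0.59 ± 0.08 (adjusted p = 1.26e-04, 0.0773 without both HET number 1 libraries) and was not called in WT, at 0.03 ± 0.08. Its response was higher in HET by 0.57 ± 0.11 (adjusted p = 0.00830), a call lost with the replicate block (0.0625), without HET IL-6 number 1 (0.0684) or HET control number 1 (0.0846), and without both HET number 1 (0.356) or both HET number 2 libraries (0.0724). The gene of the LFA-1 beta chain, Itgb2, was not called, at -0.02 ± 0.09 in HET and 0.16 ± 0.09 in WT, nor was the DAP12 gene Tyrobp, at -0.05 ± 0.11 and 0.03 ± 0.11. Itgb2 and Tyrobp were named for their role after their values were seen. Siglec1 fell by -0.87 in WT (edgeR adjusted p = 6.89e-04), a call lost without WT control number 1 (-0.77). In control, 2 of the 10 were called higher in HET (Cx3cl1 and Icam1) and 2 lower (Ccl7 and Ccl2), beside 4.85% of all tested genes called. Icam1, the gene of the LFA-1 ligand, was higher there by 0.75 (edgeR adjusted p = 0.0365), a call lost under 4 of 15 alternatives.

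Among 10 relatives of CD300E and TREML4, all tested, IL-6 raised 3 and lowered 1 in HET and raised 4 and lowered 2 in WT, with 18.3% of all tested genes called in each. The inhibitory receptor gene Cd300a fell in both, by -1.29 ± 0.09 in HET (edgeR adjusted p = 2.28e-07) and -1.26 ± 0.09 in WT (adjusted p = 2.67e-07), whereas Cd300ld rose by 0.74 ± 0.08 and 0.78 ± 0.08. Treml2 rose by 1.95 ± 0.18 in HET and 1.48 ± 0.19 in WT. Trem1, an activating receptor gene of neutrophils and monocytes, rose by 2.24 ± 0.23 in WT (adjusted p = 1.12e-05), and its response was lower in HET by -1.82 ± 0.32 (adjusted p = 0.00388). These calls were kept under all 15 alternatives.

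Nr4a1 is induced within minutes of a stimulus together with other immediate early genes, of which 11 were listed and tested. In WT, IL-6 lowered 8 of them and raised 1 (median -0.79), beside 10.4% of all tested genes called lower and 7.91% higher. In HET it lowered 1 (median -0.21), beside 9.41% called lower. The gene raised in WT was Nr4a3, at 11.3 and 13.8 CPM in WT IL-6 and 10.0 and 8.08 CPM in WT control. Nr4a2 was at 10.7 and 10.9 CPM in WT IL-6 and 11.6 and 11.1 CPM in WT control. Egr3 fell by -1.66 ± 0.23 in HET (edgeR adjusted p = 1.40e-04) and -2.93 ± 0.24 in WT (adjusted p = 1.33e-06). Jun fell by -1.04 ± 0.10 in WT, and its response was higher in HET by 1.12 ± 0.14 (adjusted p = 4.14e-04). After IL-6, 5 of the 11 were higher in HET than in WT and 1 lower, beside 13.2% of all tested genes higher and 8.80% lower, and the higher ones held Jun at 0.67 ± 0.10 and Ier2 at 0.86 ± 0.14. These calls of Egr3, Jun and Ier2 were kept under all 15 alternatives, with Egr3 in HET at -2.15 to -1.09.

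**Figure D4:**
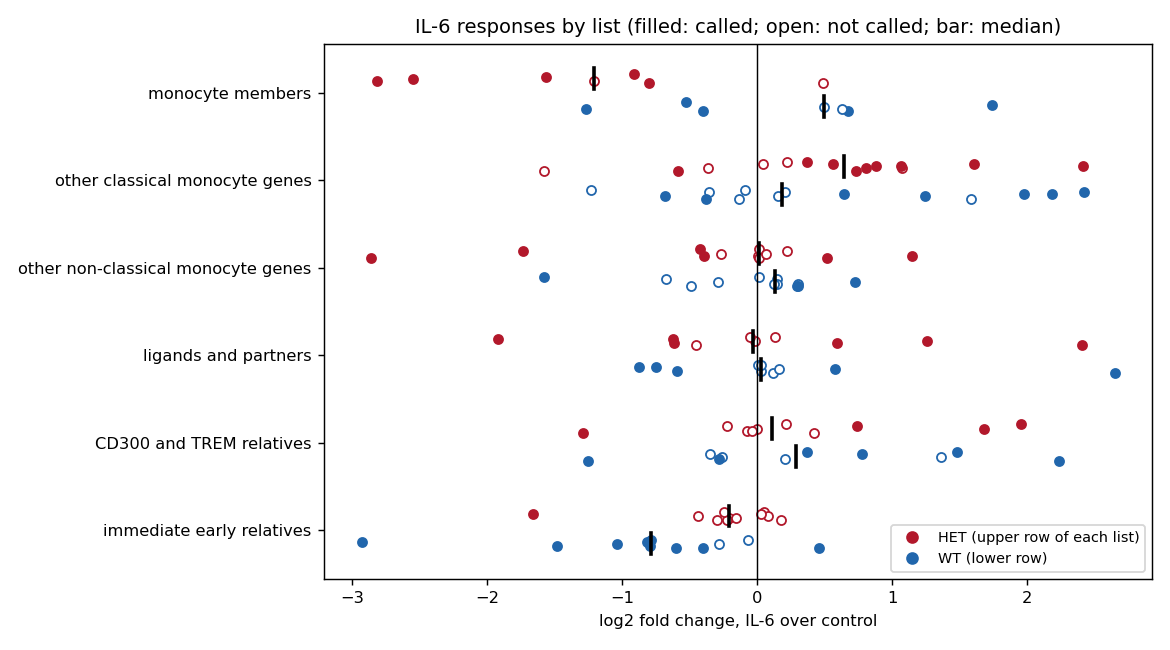
Log2 fold change of IL-6 over control for each tested gene of the member list and of 5 related lists, with HET in the upper row and WT in the lower row of each list, filled points for edgeR calls and a bar at the median. The median of the immediate early list lies at -0.21 in HET and -0.79 in WT, and that of the 7 members at -1.21 in HET and 0.49 in WT.

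The genes whose levels moved most like each member over the 8 libraries were found by the root mean square difference of centred log2 CPM, among 9294 genes with a mean of at least 5 CPM. Nearest to Cx3cr1 were the VEGF receptor gene Flt1 (0.33 log2 units), the basement membrane collagen gene Col4a1 (0.40) and Olfml3 (0.41), beside an SD of 1.01 for Cx3cr1 itself. Nearest to Itgal were Cd34 (0.27), a sialomucin gene of progenitor cells, Dmpk (0.30) and Olfml3 (0.33), beside an SD of 0.91. Cd300e stood nearest to the prostaglandin-degrading enzyme gene Hpgd (0.29), the adhesion receptor gene Adgre5 (0.39) and Ifit3 (0.44), beside an SD of 1.17. These genes were picked for their likeness over the same 8 libraries, so that they share a member's directions is given by the choice and is no further result.

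Spn had the closest neighbours, Nlrp10 (0.078), Gypc (0.092) and the actin-severing gelsolin gene Gsn (0.11), beside an SD of 0.36. Nr4a1 stood nearest to the cytokine subunit gene Ebi3 (0.12), Mfng (0.13) and Helz2 (0.13), beside an SD of 0.47. Nearest to Ccr2 were Vma21 (0.17), Kctd12 (0.18) and Gask1b (0.18), beside an SD of 0.48. Nearest to Treml4 were Fkbp5, Mns1 and Pald1 at 0.26 each, beside an SD of 0.48. Among the members, Nr4a1 and Spn were the pair most alike (0.18), and Ccr2 and Cd300e the pair least alike (1.36).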

How the data were processed

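The authors deposited raw gene counts for 8 libraries in 1 table, per the file headers in featureCounts layout. Per the submitters' processing notes, reads were handled with the tools fastp (0.12.4), STAR (2.7.9a), featureCounts (1.6.2) and SAMtools (1.9) on mm10. The strand setting is not given in the sources used here, so a gene and its antisense partner cannot be told apart. Coordinates of the members matched GENCODE M21.

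Genes were kept by filterByExpr (minimum count 10), scaled by TMM and fitted over all libraries with 1 mean per group in R 4.3.3 with edgeR 4.0.16 (robust quasi-likelihood F test, 4 residual degrees of freedom, 2-sided), tested on simulated data. Alternatives were RLE or total-count scaling, no filter, DESeq2 1.42.0, each library left out, the replicate number as a block and, added after seeing the data, both HET number 1 or both HET number 2 libraries left out.

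Members and lists were chosen with earlier results of these data known. Members were named in every comparison, up to 4 genes of each list by smallest p, and the 3 genes nearest each tested member (log2 CPM, prior count 2). Libraries within a group differed beyond sampling noise (chi-square per gene 6.66 to 19.2).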

Additional observations from a re-analysis of the deposited data

Results flagged for a closer look

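The IL-6 response differed between HET and WT for 3 members, by edgeR's test of the difference itself. For Cx3cr1 the difference, HET minus WT, was -3.05 on the log2 scale, for Itgal it was -3.30, and for Cd300e it was -1.55. The call of Cx3cr1 was lost under 5 of 15 alternatives and that of Itgal under 1, while that of Cd300e was kept under all 15. The groups held 2 libraries each, too few for a search for single libraries that stand apart.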

How the results depend on the processing

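Of 729 values of members under the alternatives, 640 kept their direction and side of the threshold, 49 lost a call, 23 gained one and 17 changed sign, none of them a called value. With 1 library left out, Itgal averaged over genotype ran from -0.082 to 0.30, Spn in HET against WT after IL-6 from -0.18 to 0.095, the averages over treatment of Itgal from -0.34 to 0.041 and of Treml4 from -0.12 to 0.16, and the difference of the Ccr2 responses from -0.41 to 0.084. Without both HET number 2 libraries Itgal averaged over genotype was -0.053, Spn after IL-6 0.061, and the averages over treatment were 0.027 for Cx3cr1 and 0.070 for Itgal. With RLE factors the average over treatment of Treml4 was -0.0042.

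With 1 library left out, the count of called genes ran from 1203 to 3061 for IL-6 in HET (2508 with all), 1577 to 3073 in WT (2515), 2301 to 3544 averaged over genotype (3243), 33 to 1304 for HET against WT in control (666, lowest without HET control number 1), 879 to 4000 after IL-6 (3021), 940 to 4500 averaged over treatment (2729) and 304 to 2123 for the difference of responses (1114). Without both HET number 2 libraries, counts were 835 for IL-6 in HET, 1715 averaged over genotype, 203 in control, 862 after IL-6, 435 averaged over treatment and 428 for the difference, and without both HET number 1 libraries 697, 1724, 79, 1042, 720 and 188 in the same order. These fits have fewer samples. With no filter the count in control was 1078, and the cause was not tested. Higher genes made up 45.8% of calls averaged over genotype with TMM and 34.8% with total counts.

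The labels do not say that equal numbers share a mouse. The deviations of same-numbered libraries correlated at 0.15 between IL-6 and control in HET and at -0.11 in WT. With the replicate block, 339 genes were called in control and 506 for the difference of responses, and among calls of members that of Ccr2 in HET alone changed (adjusted p = 0.0394). For the IL-6 comparisons and the difference of responses the block was the number within each genotype. Between the genotypes it was the number across HET and WT, which come from different mice, so there it tests no pairing of mice. Depth limits Treml4, Ly6c2 and Ace.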

Other observations

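Of the 7 macrophage markers, IL-6 raised 4 and lowered 1 in HET and raised 2 in WT, where 18.3% of all tested genes were called in each genotype. The marker lowered in HET was Csf1r, at 1854 and 1909 CPM in HET IL-6 and 2449 and 2376 CPM in HET control. Its response was lower in HET than in WT by -0.43 (edgeR adjusted p = 0.0287), a call lost under 8 of 15 alternatives. The high-affinity Fc receptor gene Fcgr1 was at 367 and 371 CPM in HET IL-6, 240 and 266 CPM in HET control, 366 and 392 CPM in WT IL-6 and 247 and 232 CPM in WT control. It rose by 0.55 ± 0.08 in HET (edgeR adjusted p = 3.07e-04) and by 0.66 ± 0.08 in WT (adjusted p = 5.81e-05), and without both HET number 1 libraries the HET value was not called (0.0918).

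S100a9, the most abundant of the neutrophil markers, was the only one of its 3 tested genes that was called. In control it was higher in HET than in WT (1.65, edgeR adjusted p = 0.0319), a call lost under 9 of 14 alternatives. With IL-6, S100a9 was called lower in HET (-1.05 ± 0.34, edgeR adjusted p = 0.0482) and higher in WT (1.45 ± 0.41, 0.0224). The responses were called different (-2.50 ± 0.53, 0.0117), at levels of at most 1.22 CPM. The WT call was lost by DESeq2 (0.0758) and without WT IL-6 number 1 (0.200) or WT control number 1 (0.147), and that of the difference without HET control number 1 (0.0602) or WT IL-6 number 1 (0.0689) and without both HET number 1 (0.144) or both HET number 2 libraries (0.0543). The call in HET was lost under 11 of 15 alternatives: by DESeq2 (0.179), with no filter (0.0862), with the replicate block (0.0808), without any one of the HET or WT IL-6 libraries and without both HET number 1 or both HET number 2 libraries, and the highest adjusted p over the alternatives was 0.542.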
